A study of Homo sapiens with 8 samples.

Results

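The cytosolic and endosomal RNA sensors were taken as 8 genes by symbol, DDX58, IFIH1, DHX58, DDX60, DDX60L, TLR3, MAVS and EIF2AK2. All 8 were found among the 22257 gene symbols of the deposited table, and all 8 passed the filter on low counts that left 14601 genes for testing. They were followed in RNA sequencing libraries of RD-ES, a Ewing sarcoma cell line, with a stably integrated USP6 gene under a doxycycline-controlled promoter. Every group carried this transgene, and the cells were kept as a pool rather than as a clone. USP6 encodes a ubiquitin-specific protease and is an oncogene. The groups, with 2 libraries each, were doxycycline with interferon alpha, interferon alpha alone, doxycycline alone, and untreated. Interferon alpha was given at 1000 U/mL for 24 h, in the combined group after 24 h of doxycycline. The labels do not give the total time on doxycycline of cells without interferon. They also name no doxycycline-treated cells without the transgene, so doxycycline itself and USP6 cannot be told apart.

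Cells detect foreign or misplaced double-stranded RNA with receptors in the cytosol and in endosomes. RIG-I (encoded by DDX58) and MDA5 (encoded by IFIH1) are helicases that, once bound to RNA, signal through the mitochondrial adaptor MAVS to switch on interferon genes. LGP2 (encoded by DHX58) is a related helicase without the signalling domains, TLR3 reads double-stranded RNA in endosomes, and PKR (encoded by EIF2AK2) is a kinase that stops translation when it binds such RNA. Secreted interferon alpha acts back on the cell through its receptor and the factor ISGF3, which binds a DNA element called ISRE and raises many of these sensors. The study asked how USP6 and interferon, alone or together, change gene induction.

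Because 7 of the 8 genes moved together, their promoters are shown first. RefSeq promoter sequences (GRCh38.p14) were matched for 7 of the 8 genes. The windows of 300 bases, 250 before the annotated start and 50 after it, were searched on both strands for the ISRE-type core GAAANNGAAA and for GAAANGAAA, which has a spacer shorter by a base. The second pattern was added after the DDX58 promoter had been read, and the letters of both can overlap. Each line below holds an excerpt of 100 to 250 bases of a window. Read 5′ to 3′ on the strand of the gene, capitals mark bases that belong to a match of either pattern on either strand.
DDX58 (chr9:32526197-32526446, minus strand): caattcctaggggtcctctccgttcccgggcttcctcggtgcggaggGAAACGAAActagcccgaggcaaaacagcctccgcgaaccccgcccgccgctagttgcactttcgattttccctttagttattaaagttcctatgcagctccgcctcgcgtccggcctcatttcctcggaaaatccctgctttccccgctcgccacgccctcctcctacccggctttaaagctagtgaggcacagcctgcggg
IFIH1 (chr2:162318685-162318884, minus strand): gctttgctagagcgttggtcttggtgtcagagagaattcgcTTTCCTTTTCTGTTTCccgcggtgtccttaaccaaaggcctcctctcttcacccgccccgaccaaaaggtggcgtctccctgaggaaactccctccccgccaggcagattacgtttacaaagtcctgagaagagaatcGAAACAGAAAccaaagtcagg
DDX60 (chr4:168318753-168318852, minus strand): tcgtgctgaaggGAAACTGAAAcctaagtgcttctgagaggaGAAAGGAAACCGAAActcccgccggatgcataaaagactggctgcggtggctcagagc
DDX60L (chr4:168480493-168480592, minus strand): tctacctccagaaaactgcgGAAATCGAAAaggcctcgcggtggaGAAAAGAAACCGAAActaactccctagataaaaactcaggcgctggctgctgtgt
EIF2AK2 (chr2:37156977-37157080, minus strand): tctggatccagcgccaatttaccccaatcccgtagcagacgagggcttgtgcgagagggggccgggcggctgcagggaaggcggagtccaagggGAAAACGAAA
TLR3 (chr4:186069056-186069161, plus strand): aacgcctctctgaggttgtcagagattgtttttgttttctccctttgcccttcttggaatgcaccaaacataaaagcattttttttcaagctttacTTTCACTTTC
MAVS (chr20:3846734-3846833, plus strand): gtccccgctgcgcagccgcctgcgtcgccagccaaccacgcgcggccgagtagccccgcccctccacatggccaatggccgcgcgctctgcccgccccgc

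The DDX60 and DDX60L promoters each held 2 ISRE-type matches. The nearer one had the same letters in both genes, GAAACCGAAA, and ended 44 bases before the DDX60 start and 41 bases before the DDX60L start. IFIH1 held 3 matches, the nearest ending 12 bases before the start. In EIF2AK2 and TLR3 the match lay across the annotated start, from position -6 to 4 and from -4 to 6, counting the first transcribed base as 1. DDX58 had no ISRE-type match, and its short-spaced match GAAACGAAA lay between positions -203 and -195. The MAVS window had neither pattern. Of 35116 RefSeq promoter windows of this length 3.57% held GAAANNGAAA, 3.12% held GAAANGAAA and 6.4% held at least 1 of them. A match of letters is a description of the sequence and not evidence of binding.

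The RefSeq promoters were also searched for the GAS-type pattern TTCNNNGAA, the kind of element bound by STAT dimers. TLR3 held 2 matches, DDX60 held 1, and the other 5 windows held none, against 7.66% of all windows with at least 1.

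Library totals over the rows used lay between 9304569 and 11984196 reads, and levels are given as CPM, reads scaled to a common library total with edgeR's trimmed mean of M values. USP6 checked the labels. It stood at 408.9 and 377 CPM with both treatments, 9.17 and 10.3 CPM with interferon, 568.7 and 558.2 CPM with doxycycline, and 9.88 and 8.77 CPM in untreated cells. All 8 Ewing sarcoma markers were tested. Their summed levels were 748 to 792 CPM with both treatments, 799 to 945 with interferon, 650 to 682 with doxycycline and 688 to 804 in untreated libraries. The markers were uneven. In untreated libraries PRKCB averaged 332.4 CPM, NKX2-2 19.1 and NR0B1 5.77, and CD99 averaged between 2.41 and 2.88 CPM in each group. The 7 leukocyte markers summed to between 3.76 and 6.46 CPM in any library, the 4 endothelial and 4 epithelial markers to at most 2.39. The 4 fibroblast markers were all tested and summed to 69.4 to 75.3 CPM with both treatments, 68.8 to 83.4 with interferon, 72 to 77.4 with doxycycline and 65.1 to 87.8 in untreated libraries. Their part in the results was not tested. Each library's deviation from the mean of all libraries also followed the GC content of genes to a different degree. Across genes, Spearman's rho was -0.64 and 0.05 for both treatments, 0.31 and 0.03 for interferon, -0.48 and 0.35 for doxycycline and 0.58 and 0.12 for untreated. The chosen transcripts had a GC content of 58.2% in DHX58, 52.1% in MAVS and between 37.6% and 43.3% in the other sensors. The part of this trend in the results was not tested beyond the corrected values given below.

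**Figure D1:**
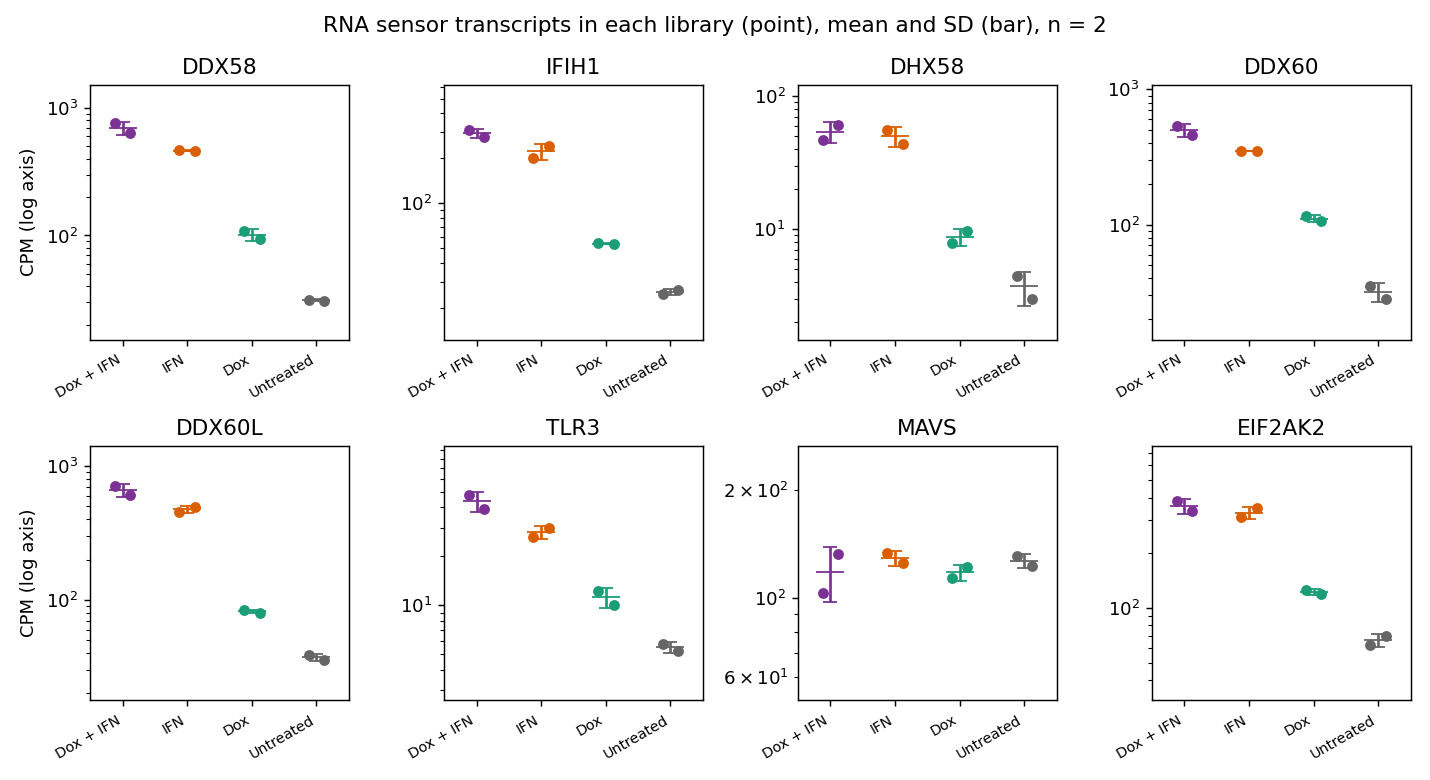
Levels of the 8 RNA sensor transcripts (CPM, log axis, scaled separately per gene) in each library (points), with mean and SD (n = 2), for doxycycline with interferon, interferon, doxycycline and untreated cells. Points of the 4 groups descend from left to right in DDX58 and IFIH1, while MAVS stays between 103.2 and 133.1 CPM in every library.

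Interferon alone raised 7 of the 8 genes, and only MAVS was not called. A gene was called at a Benjamini-Hochberg adjusted p under 0.05 in edgeR's quasi-likelihood test over all genes tested. For comparison, 1.62% of all genes tested were called higher. The median log2 fold change of the 8 genes was 3.30, against -0.01 over all genes tested. Nothing in the labels marks the 2 replicates of a group as separate cultures, and the spread that p-values measure may be technical.

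DDX58 had 467.2 and 457.8 CPM in interferon-treated cells, against 31.4 and 30.6 CPM in untreated cells. The groups were far apart, and the log2 change of 3.90 ± 0.12 (SE, edgeR adjusted p = 3.7e-09) was the 38th from the top of 14601 genes. IFIH1 stood at 202.1 and 242.3 CPM with interferon and at 24.6 and 26.4 CPM without (3.12 ± 0.12, edgeR adjusted p = 1.6e-08). These are the sensors that carry the signalling domains, and neither overlapped between the groups. The share of all genes without overlap was not counted, so a lack of overlap is given here and below as description only. DHX58, encoding the regulator LGP2, had 561 and 458 reads with interferon, against 47 and 33 reads in untreated cells, or 55.9 and 43.8 against 4.46 and 2.95 CPM. Its change of 3.75 ± 0.23 (edgeR adjusted p = 1.4e-06) had the largest SE of the 8 genes.

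DDX60 encodes an interferon-induced helicase related to yeast Ski2 that has been described as a helper of RIG-I signalling, and DDX60L is its paralogue. DDX60 was read at 352.6 and 351.6 CPM in interferon-treated cells, against 35.3 and 28.2 CPM in untreated cells (3.47 ± 0.13, edgeR adjusted p = 1.4e-08). DDX60L was read at 453.4 and 495.3 CPM with interferon and at 38.9 and 35.5 CPM without (3.67 ± 0.11, edgeR adjusted p = 3.7e-09). In both genes all interferon libraries lay far above the untreated ones. Reads could be split between these similar genes, since how shared reads were counted is not given in the sources used here, so each value is uncertain to that extent.

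The endosomal receptor gene TLR3 had 26.4 and 29.8 CPM in interferon-treated cells, against 5.79 and 5.19 CPM in untreated cells (2.36 ± 0.18, edgeR adjusted p = 1e-05). EIF2AK2 reached 311.6 and 349.2 CPM, against 62.1 and 70.3 CPM in untreated cells (2.32 ± 0.11, edgeR adjusted p = 1.1e-07). TLR3 and EIF2AK2 thus had the smallest changes of the 7 genes called, and their groups did not overlap. MAVS, the adaptor on which RIG-I and MDA5 converge, had 133.1 and 124.6 CPM with interferon and 130.9 and 122.9 CPM without. Its groups overlapped, at a change of 0.02 ± 0.11 (edgeR adjusted p = 0.97).

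With doxycycline alone, 6 of the 8 genes rose, by smaller amounts than with interferon. In this comparison 0.719% of all genes tested were called higher. The median log2 change of the 8 genes was 1.11, against 0 over all genes tested. DDX60 had the largest change of the 8, with 115.2 and 106.2 CPM in doxycycline-treated cells, against 35.3 and 28.2 CPM in untreated cells (1.8 ± 0.12, edgeR adjusted p = 2e-05). DDX58 had 108.8 and 93.4 CPM, against 31.4 and 30.6 CPM in untreated cells (1.70 ± 0.12, edgeR adjusted p = 2e-05). The levels of these RIG-I related helicases did not overlap between the groups.

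DDX60L, the paralogue of DDX60, rose by 1.14 ± 0.11 (edgeR adjusted p = 0.00028), with 83.8 and 80.2 CPM with doxycycline and 38.9 and 35.5 CPM without. IFIH1 rose by 1.08 ± 0.12 (edgeR adjusted p = 0.00072), at 54.3 and 53.5 CPM with doxycycline and 24.6 and 26.4 CPM without. EIF2AK2 had 125.2 and 117.9 CPM, against 62.1 and 70.3 CPM in untreated cells (0.88 ± 0.11, edgeR adjusted p = 0.0017). In each of these genes both doxycycline libraries lay above both untreated ones. Whether DDX60 and DDX60L differ in this response was not tested.

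TLR3 was called at the edge of the threshold, with 12.3 and 10 CPM with doxycycline and 5.79 and 5.19 CPM without (1.02 ± 0.19, edgeR adjusted p = 0.036). It lost its call without doxycycline replicate 1 (0.87, adjusted p = 0.32), without either untreated replicate (1.10 and 0.92, adjusted p = 0.099 and 0.34) and without either interferon library (adjusted p = 0.079 and 0.081). The TLR3 call was also lost with the replicate block (adjusted p = 0.055), with summed rows (adjusted p = 0.063) and with only the groups compared (adjusted p = 0.11). DHX58 had 94 and 114 reads in doxycycline-treated cells, against 47 and 33 reads in untreated cells. Its groups did not overlap, and its change of 1.24 ± 0.26 missed the threshold (edgeR adjusted p = 0.06). Once GC content and transcript length were corrected for in each library, the value was 1.41 (adjusted p = 0.00033), and DESeq2 gave 1.24 (adjusted p = 0.00077). Without the filter on low counts DHX58 also passed (adjusted p = 0.015). It did not pass with relative log expression factors, a stricter filter or summed rows (adjusted p = 0.06, 0.086 and 0.087). Neither did it with the replicate block or only the groups compared (adjusted p = 0.11 and 0.13). Without untreated replicate 2 the DHX58 change was 0.95 (adjusted p = 0.44). MAVS had 113.3 and 122 CPM with doxycycline and 130.9 and 122.9 CPM in untreated cells. The doxycycline values lay just below the untreated ones, at a change of -0.11 ± 0.11 (edgeR adjusted p = 0.71).

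**Figure D2:**
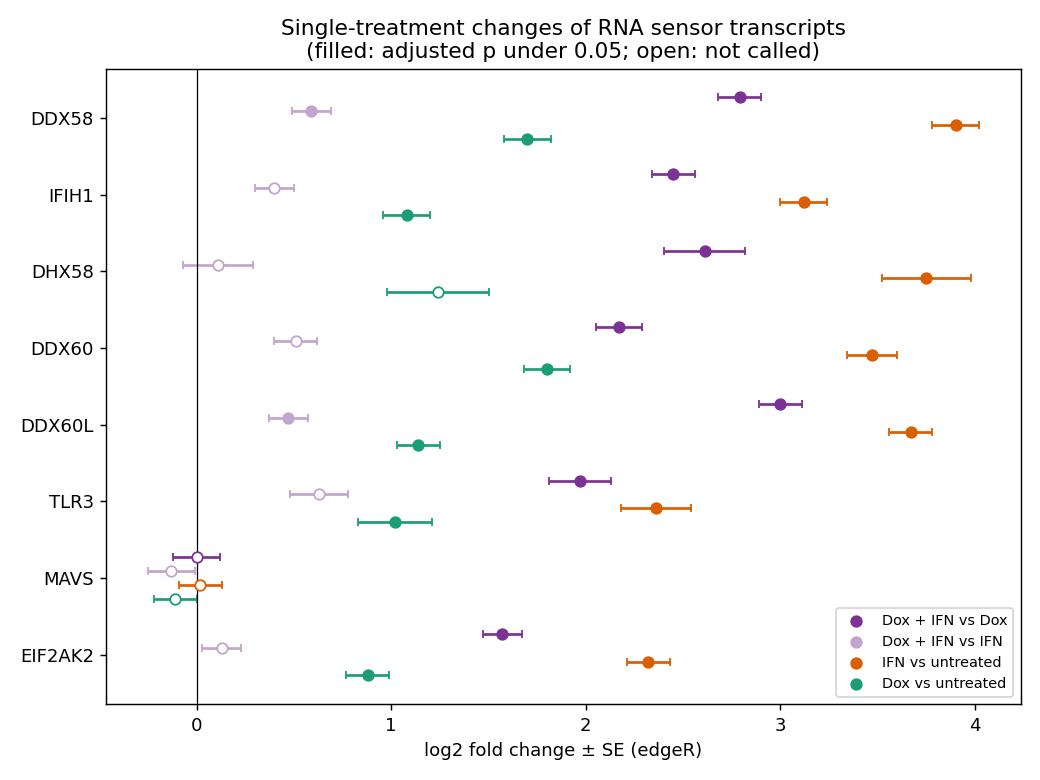
Log2 fold changes ± SE of the 8 genes (edgeR) for doxycycline with interferon against doxycycline, doxycycline with interferon against interferon, interferon against untreated, and doxycycline against untreated. Filled points were called, open points were not; the changes with interferon alone reach 3.90 in DDX58, those of MAVS lie between -0.13 and 0.02.

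Interferon alone was also set against doxycycline alone. Of the 8 genes 7 were higher with interferon, where 1.85% of all genes tested were called higher. The log2 differences between the treatments ran from 1.33 ± 0.17 in TLR3 (edgeR adjusted p = 0.00091) to 2.53 ± 0.11 in DDX60L (edgeR adjusted p = 1.2e-07). DDX60 stood 1.67 ± 0.11 higher with interferon (edgeR adjusted p = 5.6e-06), DDX58 2.19 ± 0.11 (edgeR adjusted p = 3.8e-07). MAVS differed by 0.13 ± 0.11 (edgeR adjusted p = 0.64).

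In cells already given doxycycline, interferon again raised the 7 genes other than MAVS, and 2.42% of all genes tested were called higher. DDX60L had 709.3 and 604.5 CPM with both treatments, against 83.8 and 80.2 CPM with doxycycline alone (3.0 ± 0.11, edgeR adjusted p = 1.7e-08). DDX58 had 755.6 and 638.8 CPM with both treatments, against 108.8 and 93.4 CPM with doxycycline alone (2.79 ± 0.11, edgeR adjusted p = 3.9e-08). The RIG-I transcript thus reached its highest values of all groups in these libraries.

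DHX58 stood at 46.9 and 60.6 CPM with both treatments and at 7.84 and 9.69 CPM with doxycycline (2.61 ± 0.21, edgeR adjusted p = 1.1e-05). IFIH1 stood at 309.4 and 277.9 CPM with both and at 54.3 and 53.5 CPM with doxycycline (2.45 ± 0.11, edgeR adjusted p = 9e-08). DDX60 had 539.6 and 460.2 CPM, against 115.2 and 106.2 CPM with doxycycline (2.17 ± 0.12, edgeR adjusted p = 3.5e-07). None of these helicases overlapped between the groups.

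TLR3 had 48 and 39.3 CPM with both treatments, against 12.3 and 10 CPM with doxycycline (1.97 ± 0.16, edgeR adjusted p = 1.8e-05). EIF2AK2 had 384.9 and 337 CPM, against 125.2 and 117.9 CPM (1.57 ± 0.10, edgeR adjusted p = 2.3e-06). Both groups of libraries were clearly apart in the endosomal receptor and in the kinase. MAVS had 103.2 and 132.4 CPM with both treatments and 113.3 and 122 CPM with doxycycline, overlapping at a change of 0.00 ± 0.12 (edgeR adjusted p = 1).

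Adding doxycycline to interferon gave small further changes. Of the 8 genes 2 were called higher, DDX58 (0.59 ± 0.10, edgeR adjusted p = 0.018) and DDX60L (0.47 ± 0.10, edgeR adjusted p = 0.046), while 1.07% of all genes tested were. The DDX58 levels were 755.6 and 638.8 CPM with both treatments and 467.2 and 457.8 CPM with interferon alone. The DDX60L levels were 709.3 and 604.5 CPM with both and 453.4 and 495.3 CPM with interferon. Corrected for GC content and length, the changes were 0.50 in DDX58 (adjusted p = 0.00047) and 0.38 in DDX60L (adjusted p = 0.0071). With summed rows DDX58 kept its call (adjusted p = 0.032) and DDX60L lost it (adjusted p = 0.076). Replicate 1 of the combined group was the higher in both genes. Without that library both calls were lost (0.47, adjusted p = 0.094, and 0.35, adjusted p = 0.3), as they were without interferon replicate 1 (adjusted p = 0.12 and 0.26) or 2 (adjusted p = 0.21 for each). DDX60L also lost its call without either doxycycline library (adjusted p = 0.067 and 0.059) or untreated replicate 2 (adjusted p = 0.059), and with replicate number as a block (adjusted p = 0.076).

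DDX60 (0.51 ± 0.11, edgeR adjusted p = 0.053), TLR3 (0.63 ± 0.15, edgeR adjusted p = 0.085) and IFIH1 (0.40 ± 0.10, edgeR adjusted p = 0.096) did not pass. Their groups did not overlap, which alone is no sign of a change. The same genes passed once GC content and length were corrected for, at 0.41 (adjusted p = 0.0075), 0.53 (adjusted p = 0.015) and 0.34 (adjusted p = 0.021). DDX60 also passed with the replicate block (0.50, adjusted p = 0.046) and without a filter (adjusted p = 0.022). With only the groups compared (adjusted p = 0.025) and with DESeq2 (adjusted p = 0.0018) DDX60 passed too. It did not pass with relative log expression factors, a stricter filter or summed rows (adjusted p = 0.053, 0.061 and 0.091). DHX58 (0.11 ± 0.18, edgeR adjusted p = 0.82), EIF2AK2 (0.13 ± 0.10, edgeR adjusted p = 0.58) and MAVS (-0.13 ± 0.12, edgeR adjusted p = 0.63) overlapped between the groups. In their order of levels, DDX58 and DDX60L were therefore called at every step between the 4 groups. The support was weakest between both treatments and interferon. DDX60L and DDX60 lay just on either side of the threshold there (edgeR adjusted p = 0.046 and 0.053). Whether these genes differ in this step was not tested. In DDX60, IFIH1, TLR3 and EIF2AK2 the upper pair of groups was not separated by the test, and in DHX58 neither the upper nor the lower pair was.

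The difference between the responses to interferon with and without doxycycline was tested as an interaction. It compares fold changes, on the log2 scale, and not steps in CPM. The interaction was negative in all 8 genes, with values between -1.30 and -0.02. It passed in 2 of them, where 0.164% of all genes tested were called lower. For DDX60 the response was 2.17 with doxycycline and 3.47 without, an interaction of -1.30 ± 0.16 (edgeR adjusted p = 0.0091). For DDX58 the response was 2.79 with doxycycline and 3.90 without, an interaction of -1.11 ± 0.15 (edgeR adjusted p = 0.016). These are the genes that doxycycline alone had raised most, but the interaction subtracts that same change, so the 2 results are not independent. In both genes the levels with both treatments were nevertheless above those with interferon alone in every library.

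Of the genes that did not pass, DHX58 had an interaction of -1.14 ± 0.32 (edgeR adjusted p = 0.94), EIF2AK2 of -0.75 ± 0.15 (edgeR adjusted p = 0.14), IFIH1 of -0.68 ± 0.15 (edgeR adjusted p = 0.32), DDX60L of -0.67 ± 0.15 (edgeR adjusted p = 0.27) and TLR3 of -0.39 ± 0.24 (edgeR adjusted p = 1). MAVS stood at -0.02 ± 0.16 and changed sign under several alternatives. The DDX60 call was lost without either interferon library (-1.28 each, adjusted p = 0.077 and 0.084) or untreated replicate 2 (-1.13, adjusted p = 0.052). The DDX58 call was lost without any interferon or untreated library or doxycycline replicate 1, at values between -1.13 and -1.0 (adjusted p between 0.062 and 0.12). Corrected for GC content and length, 6 genes passed, at values of -1.12 in DHX58 (adjusted p = 0.034), -0.78 in EIF2AK2 (adjusted p = 0.0015), and -0.7 in both IFIH1 (adjusted p = 0.018) and DDX60L (adjusted p = 0.0073) beside DDX58 and DDX60. DESeq2 called 4.

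**Figure D3:**
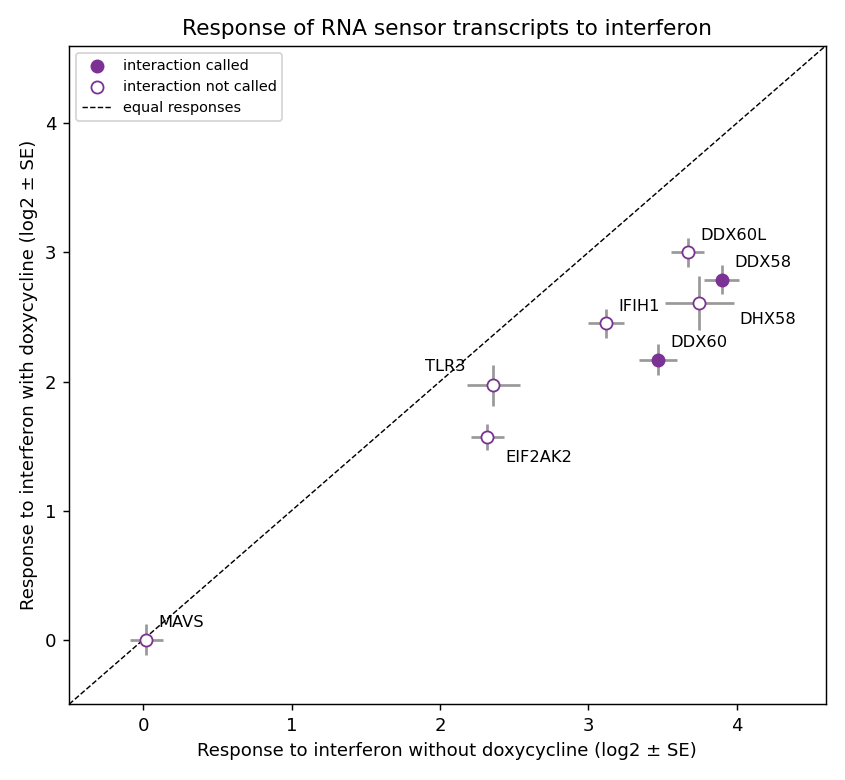
Response to interferon of each RNA sensor gene in cells with doxycycline (vertical axis) and without (horizontal axis), as log2 fold change ± SE; the dashed line marks equal responses. DDX60 (2.17 with, 3.47 without) and DDX58 (2.79 with, 3.90 without) are filled because their interaction was called, and MAVS sits near the origin.

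Compared with untreated cells, both treatments together raised the 7 genes, where 7.12% of all genes tested were called higher and 6.73% lower. DDX58 was 22.5-fold higher (4.49 ± 0.12, edgeR adjusted p = 8.1e-10), DDX60L 17.6-fold (4.14 ± 0.12, edgeR adjusted p = 8.9e-10) and DDX60 15.8-fold (3.98 ± 0.13, edgeR adjusted p = 3.4e-09). DHX58 was 14.5-fold and IFIH1 11.5-fold higher, TLR3 7.94-fold and EIF2AK2 5.45-fold. The MAVS level was 0.928 times that of untreated cells (-0.11 ± 0.12, edgeR adjusted p = 0.57).

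Levels can be compared between genes per length, here as mean CPM per kilobase of the matched GENCODE transcript, available for the 7 genes other than TLR3. In untreated cells the kinase gene EIF2AK2 was the highest at 15.2 and MAVS the next at 10.8. The helicase genes DDX58, IFIH1, DDX60L and DDX60 lay between 7.13 and 5.23, and DHX58 at 1.42. With both treatments the order had changed. DDX58 was then the highest at 160 CPM per kilobase, DDX60L followed at 97.3, and EIF2AK2, DDX60 and IFIH1 lay between 83.1 and 81.7. MAVS was then the lowest of these 7 genes at 10.1, below DHX58 at 20.5. The MAVS values rest on a matched transcript of 11714 bases, and a shorter counted model would raise them.

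EIF2AK2 was the only member with several transcript rows. Its 3 rows held nearly the same reads, the smallest with 97.4% of the largest, so isoforms could not be separated.

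Likeness to other genes was measured by the root mean square difference of the 3 log2 changes against untreated cells (doxycycline, interferon, both) among 13820 other genes. These 3 changes share the untreated libraries. DDX60L was nearest to NLRC5, a regulator of MHC class I genes, at 0.062. IFIH1 was nearest to PARP9, a partner of the ubiquitin ligase DTX3L, and to the scramblase gene PLSCR1, at 0.11 each. EIF2AK2 was nearest to SP110, a nuclear body gene, and ANGPTL6, at 0.1 each. TLR3 lay nearest to TDRD7, a Tudor domain gene, at 0.12 and to the peptidase gene ERAP2 at 0.15. DDX58 lay at 0.18 from OAS3, another enzyme activated by double-stranded RNA, and at 0.22 from LOC100507463. DDX60 lay at 0.21 from SAMD9, and DHX58 at 0.21 from NLRC5. The pattern of MAVS was matched within 0.0092 by GPKOW and MT1F, which were as little changed.

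Genes around the sensors were taken from lists of the pathway, chosen with earlier results of these data known. Interferon, with 1.62% of all genes tested called higher, raised 4 and lowered 1 of 26 tested regulators of the RIG-I-like receptors. They were ZC3HAV1, an antiviral zinc finger protein whose short form assists RIG-I (1.90 ± 0.10, edgeR adjusted p = 3.7e-07), ZNFX1, a helicase described as an RNA sensor at mitochondria (1.43 ± 0.09), TRIM25, the ubiquitin ligase linked to RIG-I activation (1.72 ± 0.10, edgeR adjusted p = 1.1e-06), and NLRC5 (3.56 ± 0.28). RNF125, a ligase that marks RIG-I for degradation, had 12 and 14 reads in interferon-treated and 33 and 43 in untreated cells, a log2 change of -1.45 ± 0.30 (edgeR adjusted p = 0.028), where 0.5% of all genes tested were called lower. The median of the list was 0.00, against -0.01 over all genes tested.

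Doxycycline alone raised 3 of these regulators, ZC3HAV1 (1.37 ± 0.10, edgeR adjusted p = 3.2e-05), ZNFX1 (0.53 ± 0.09, edgeR adjusted p = 0.017) and TRIM25 (0.54 ± 0.10, edgeR adjusted p = 0.041). Interferon in doxycycline-treated cells raised 5, among them ZNFX1 (1.21 ± 0.08), TRIM25 (1.40 ± 0.10), NLRC5 (3.0 ± 0.25) and ZC3HAV1 (0.84 ± 0.10). Both treatments against interferon raised only 1, CYLD, a deubiquitinase that restrains RIG-I (0.75 ± 0.11, edgeR adjusted p = 0.0067). ZC3HAV1 was the only regulator whose interaction passed (-1.06 ± 0.14, edgeR adjusted p = 0.011). Over all genes tested 0.719%, 2.42% and 1.07% were called higher in the comparisons of this paragraph in order, and 0.164% lower for the interaction.

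Of 21 tested genes of the signalling route from MAVS to IRF3 and NF-kB, interferon alone raised 1, IRF7, the factor that amplifies interferon gene transcription (3.01 ± 0.32, edgeR adjusted p = 0.00018). Doxycycline alone raised 0 by edgeR, in a comparison where 1993 genes had an unadjusted p under 0.05. IRF7 had 93 and 139 reads with doxycycline and 68 and 36 in untreated cells (1.02 ± 0.34, edgeR adjusted p = 0.24). IRF3, its constitutive relative, stood at -0.06 ± 0.21 with interferon and -0.43 ± 0.21 with doxycycline. The kinase TBK1 stood at 0.17 ± 0.09 and 0.01 ± 0.09 in the same comparisons. In doxycycline-treated cells interferon raised 1 gene of the list, IRF7 (1.83 ± 0.29, edgeR adjusted p = 0.0038). Among all genes tested, 1.62% were called higher with interferon alone and 2.42% with interferon after doxycycline. Both treatments against untreated raised 8 and lowered 2 of the 21, where 7.12% of all genes tested were called higher and 6.73% lower.

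From a list of endosomal Toll-like receptors, their adaptors and related genes, 10 genes were tested. None of them was a Toll-like receptor, because TLR7, TLR8 and TLR9 did not pass the filter and TLR3 stood among the sensors. With interferon alone or doxycycline alone 0 of the 10 were called by edgeR. In these comparisons 1700 and 1993 of all genes had an unadjusted p under 0.05. In doxycycline-treated cells interferon raised 2, LY96, a co-receptor of TLR4 (0.64 ± 0.14, edgeR adjusted p = 0.031), and UNC93B1, the chaperone that brings TLR3 to endosomes (1.33 ± 0.32, edgeR adjusted p = 0.049). Among all genes tested, 2.42% were called higher in that comparison. TICAM1, the adaptor of TLR3, stood at -0.15 ± 0.40 with interferon and -0.35 ± 0.40 with doxycycline.

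Among 18 tested partners of PKR and genes of the eIF2 alpha pathway, interferon raised 1 with and without doxycycline, the stress factor gene DDIT3 (0.72 ± 0.10 with and 0.77 ± 0.11 without, edgeR adjusted p = 0.0019 and 0.0016). Doxycycline alone raised and lowered 0 of them. Among all genes tested, 2.42% were called higher with interferon after doxycycline, 1.62% with interferon alone and 0.719% with doxycycline alone. The 1 call of 18 is given as description only. PRKRA, encoding the PKR activator PACT, stood at -0.10 ± 0.10 with interferon and 0.13 ± 0.10 with doxycycline. The PKR substrate gene EIF2S1 stood at 0.11 ± 0.12 and -0.12 ± 0.12.

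Of 22 other tested genes for proteins that bind or sense RNA, mostly double-stranded, 7 rose with interferon and 5 with doxycycline. In doxycycline-treated cells 7 rose with interferon. Over all genes tested 1.62%, 0.719% and 2.42% were called higher in these comparisons. OAS2, whose product makes the activator of RNase L, had an interaction of -4.0 ± 0.19 (edgeR adjusted p = 2.1e-06), and IFIT1, which binds RNA ends, of -2.13 ± 0.19 (edgeR adjusted p = 0.00055). The interactions of 4 genes of this list passed, all negative, where 0.164% of all genes tested were called lower. OASL, described as a helper of RIG-I, was the only gene of the list called for both treatments against interferon, at 55.1 ± 0.0994 and 14.1 ± 2 CPM (SD, n = 2 each; 1.97 ± 0.16, edgeR adjusted p = 6e-05). ADAR, which edits double-stranded RNA, rose by 1.48 ± 0.09 with interferon and stood at 0.41 ± 0.09 with doxycycline (edgeR adjusted p = 0.061).

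**Figure D4:**
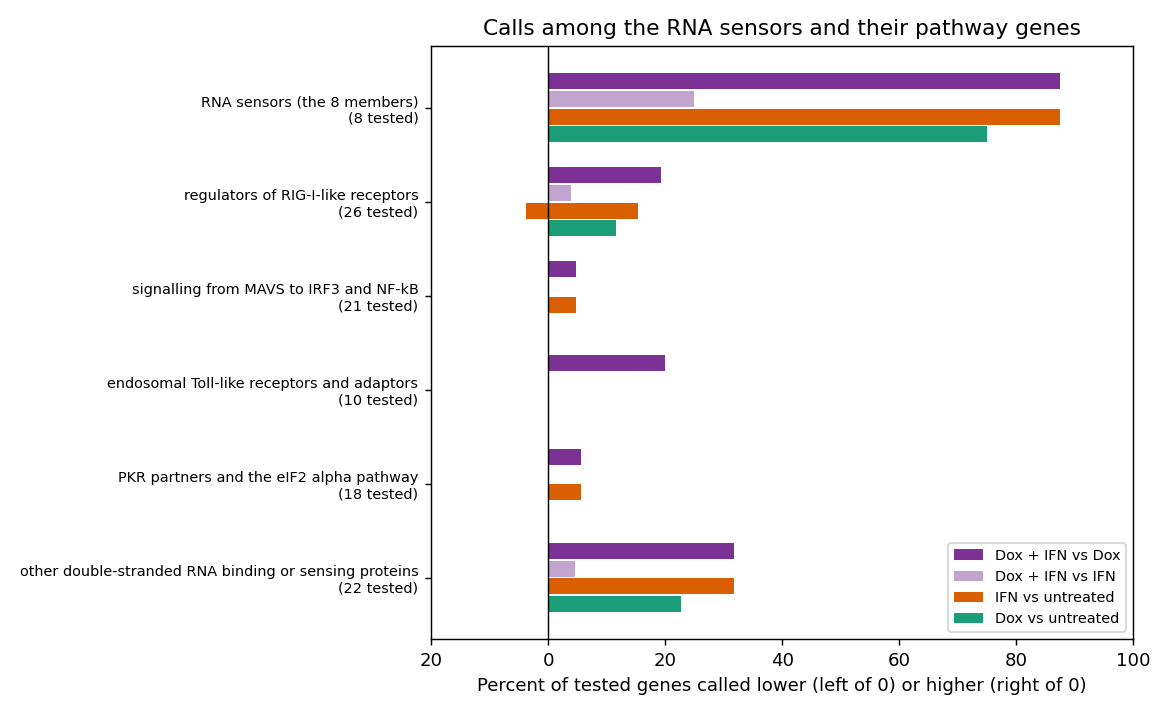
Percent of tested genes called higher (right of 0) or lower (left of 0) among the 8 RNA sensors and 5 lists of pathway genes, for doxycycline with interferon against doxycycline, doxycycline with interferon against interferon, interferon against untreated, and doxycycline against untreated. Interferon alone raised 7 of 8 sensors, 4 of 26 regulators and 1 of 21 genes of the route from MAVS. Sensors and lists were chosen with earlier results of these data known, so these shares are description only. Over all genes tested 2.42%, 1.07%, 1.62% and 0.719% were called higher, in the order of comparisons above.

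The listed interferon genes were barely read. None of 21 passed the filter. Together they had 14 and 4 reads with both treatments, 1 and 3 with interferon, 6 and 9 with doxycycline, and 4 and 7 in untreated libraries. IFNB1, the interferon beta gene, had 1 and 2 reads with both treatments, 0 with interferon, 1 and 0 with doxycycline, and 0 in untreated libraries. For IFNB1 no group held more than 3 reads in all, so no difference was detectable at this depth. IFNK, the interferon kappa gene, had the most reads of the list, with 6 and 1 with both treatments, 0 and 2 with interferon, 5 and 7 with doxycycline, and 2 and 6 in untreated libraries. A floor of 3 reads corresponded to between 0.25 and 0.322 CPM per library.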

How the data were processed

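Per the labels' protocols, the 8 RNA libraries came from a stranded total RNA kit. Whole-number read counts for RefSeq transcripts, not normalised, make up the table deposited by the authors. It also has a mark of 0 or 1 per transcript in a column whose meaning is not given by the authors' header, which was not used in tests. Build hg19, CASAVA 1.8.2 and edgeR are named in the submitters' processing notes. Aligner, counting method and any use of strand are not given.

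Rows of a gene overlap in reads, so each symbol was represented by its row of highest total. Counts were tested with edgeR 4.0.16 (R 4.3.3): trimmed mean of M values (factors 0.977 to 1.03), the default filter, 1 mean per group over all 8 libraries with 4 residual degrees of freedom, and the quasi-likelihood test with Benjamini-Hochberg adjustment over 14601 genes. The common biological coefficient of variation was 0.0972. SEs were derived from the fold change and F statistic. Replicates differed by more than sampling noise (3.91 to 8.05 chi-square units per degree of freedom). Floors cover counting error only.

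Transcript length and GC content came from GENCODE 29, known for 98.3% of tested genes, promoters and gene types from RefSeq. The code was tested on simulated data. Alternatives were DESeq2 1.42.0, relative log expression factors, other filters, only the groups compared, a replicate block, summed rows, a loess correction for GC content and length (span 0.3) and leaving out each library. A crossed block was added after seeing the data. The members and lists were chosen with earlier results of these data known. Beside the 8 sensors, the text names USP6, TRIM25, IRF3, IRF7, TBK1, TICAM1, PRKRA, EIF2S1, IFNB1, up to 4 genes with the smallest p among those called per list and comparison, and the 2 nearest genes of each sensor among those with a mean of at least 1 CPM, leaving out pseudogenes. ADAR, OASL, IFNK, TLR7, TLR8, TLR9, ZBP1 and the markers CD99, NKX2-2, NR0B1 and PRKCB, where named outside that rule, were picked with their values known. A gene given by this rule is not reported here.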

Additional observations from a re-analysis of the deposited data

Results flagged for a closer look

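The fold response to interferon differed with doxycycline in DDX60 and DDX58, by the test of the interaction itself. The difference between the response with and without doxycycline was -1.30 on the log2 scale in DDX60 and -1.11 in DDX58. The levels behind DDX60 averaged 499.9 ± 56.2 CPM with both treatments and 110.7 ± 6.34 CPM with doxycycline, beside 352.1 ± 0.669 CPM with interferon and 31.8 ± 5.05 CPM in untreated cells (SD, n = 2 each). Those behind DDX58 averaged 697.2 ± 82.6 and 101.1 ± 10.9 CPM with both treatments and with doxycycline, beside 462.5 ± 6.62 and 31.02 ± 0.587 CPM with interferon and in untreated cells. In mean CPM, the step with interferon was larger with doxycycline than without in both genes, which was not tested. The negative sign thus holds for fold changes only. The unknown time on doxycycline of cells without interferon cannot be told apart from the interaction. USP6 itself was called lower with both treatments than with doxycycline alone (-0.52 ± 0.08, edgeR adjusted p = 0.0044). The part of the USP6 level in the interaction was not tested.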

How the results depend on the processing

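The 56 results for a sensor in a comparison gave 1000 values under 18 alternatives (17 for the interaction). Of these 916 kept direction and side of the threshold, 27 lost and 36 gained a call, and 21 changed sign, none of them called. With interferon, with interferon in doxycycline-treated cells, with both treatments against untreated and with interferon against doxycycline, 7 of 8 sensors were called under every alternative run. With doxycycline alone between 5 and 7 were, against 6. For both treatments against interferon the count of 2 became 1 with summed rows, 4 with DESeq2, and 5 when GC content and length were corrected for (with or without the block) and with the crossed block. It lay between 0 and 3 without single libraries, at 0 without replicate 1 of both treatments or either interferon library. For the interaction the count of 2 became 4 with DESeq2 and 6 with the same correction (with or without the block) or the crossed block, and lay between 0 and 2 without single libraries, at 0 without either interferon library or untreated replicate 2. The sign changes were in MAVS and DHX58. MAVS stood at 0.00 or -0.01 with interferon alone under summed rows and the correction, at 0.00 with interferon after doxycycline without a filter and with either block, and at 0.00 or 0.01 in the interaction under summed rows and the correction. Without single libraries MAVS ranged from -0.02 to 0.07 with interferon, -0.17 to 0.19 with interferon after doxycycline, -0.32 to 0.04 for both treatments against interferon, -0.30 to 0.07 against untreated and -0.20 to 0.16 in the interaction, and DHX58 from -0.09 to 0.29 for both treatments against interferon. The cause was not tested.

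Over all genes the calls depended more on the processing. With doxycycline alone 119 genes were called, 519 with the correction, 641 with the correction and the block, 239 with DESeq2, 207 without a filter, 78 with only the groups compared, 1252 with the crossed block, and between 54 and 131 without single libraries. With interferon alone the count was 310, 766 with the correction, 833 with the correction and the block, 1117 with the crossed block, and between 174 and 336 without single libraries. For both treatments against doxycycline the 486 calls became 1257, 1367 and 1864 in the same order, and between 290 and 480. For both against interferon the 196 became 554, 686 and 1497, 302 with DESeq2, and between 46 and 266. For both against untreated the 2023 became 4734 with the crossed block, and between 712 and 2589. For interferon against doxycycline the 430 became 1461, 1637 and 1821, 933 with only the groups compared, and between 134 and 558. For the interaction the 25 became 53, 56 and 53, 42 with DESeq2, and between 9 and 20.

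The labels do not say that replicate numbers pair the libraries, and with 2 per group they were not taken to. Deviations of equal numbers correlated across genes at 0.34 between untreated and interferon and 0.45 between doxycycline and both treatments, but at -0.35, -0.34, -0.12 and -0.12 between groups with and without doxycycline, which is why a crossed block was tried. That block was set from the spread of these same libraries, so the calls gained with it are no independent support. Beside the changes named in the report for DDX60 and DDX60L, the replicate block as numbered took TLR3 with doxycycline out of the calls (1.02, adjusted p = 0.055). None of the interferon genes had enough reads to be tested.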

Other observations

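The other endosomal RNA and DNA receptors TLR7, TLR8 and TLR9, and the sensor ZBP1, which was not listed as endosomal, were near or at 0. TLR7, an endosomal sensor of single-stranded RNA, had 5 and 3 reads with both treatments and 0 in the other 6 libraries. ZBP1, a sensor of left-handed nucleic acid, had 1 and 2 reads with both treatments and 0 elsewhere. TLR8 had 0 reads in every library, and TLR9 had 1 read over both libraries with both treatments, 1 with interferon, 2 with doxycycline and 2 in untreated cells. None of the 4 passed the filter, so no test was made.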
